A study of Mus musculus with 72 samples.

Results

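The glucocorticoid receptor, encoded by Nr3c1, and 8 coregulators that act with it on chromatin were followed through 72 messenger RNA libraries of mouse macrophages. The genes were matched by symbol in the 3 deposited tables of TPM, a transcript level scaled by transcript length and by the library's total. All 9 were listed in each table, among 18472 genes listed in at least 1. The submitters' series compares macrophages with altered Setd1a or Setd1b, the methyltransferase subunits of complexes that methylate histone H3 at lysine 4, under an inflammatory stimulus and a glucocorticoid. The 72 libraries form 24 groups of 3 in 4 experiments, and every value has n = 3 per group.

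The receptor rests in the cytoplasm in a complex with heat shock proteins until a glucocorticoid binds it, after which it enters the nucleus and raises or lowers transcription of its target genes. In macrophages it is best known for damping inflammatory genes. At its binding sites the receptor works through coregulators. The p160 coactivators Ncoa1 (SRC-1), Ncoa2 (GRIP1) and Ncoa3 (SRC-3) dock on the bound receptor and recruit the histone acetyltransferases Crebbp (CBP) and Ep300 (p300). Smarca4 (BRG1) is the ATPase of the SWI/SNF nucleosome remodeller. Ncor1 is the scaffold of a corepressor complex, and Hdac3 is the histone deacetylase held in it.

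The first experiment used macrophages differentiated from C57BL/6J bone marrow. Their control libraries carry wt in the titles but Setd1bHet as genotype label; control stands for them below. The others are labelled Setd1bKO. The labels also give the sex of the marrow donors as female where the growth protocol says male. RAW264.7 cells, an established macrophage line from BALB/c mice, were wild-type or carried Setd1aDel/+, a heterozygous Setd1a deletion called Setd1aDel below. In the marrow-derived cells and in a first RAW264.7 experiment (16 h), cells had 16 h of 0.1% ethanol alone (vehicle), 16 h of ethanol with lipopolysaccharide from bacteria (LPS, at 100 ng/ml over 6 h), or 16 h of 1 uM dexamethasone (Dex, a synthetic glucocorticoid) with that LPS. A second RAW264.7 experiment (6 h) gave ethanol or Dex for 6 h, with the same LPS dose and time, and added Dex alone. The last compared 6 h of LPS with the same LPS and interferon beta (IFNB1, 10 ng/ml) in both RAW264.7 genotypes. The sample labels give the LPS dose per ml, while the treatment protocol writes it per ul for the Dex experiments. Replicates are labelled biological, but no label ties them to separate animals or cultures, so the p-values measure only the spread between these libraries.

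The number of reads is not given, and the listed genes summed to between 837032 and 912839 TPM per library. Replicates correlated at 0.989 or more, and no library was identical to another. Setd1a was lower in Setd1aDel at 16 h, with a log2 difference of -0.63 in vehicle (adjusted p = 0.00226). At 6 h in vehicle it differed by -0.50 and was not called (adjusted p = 0.0953). Setd1b was higher in the vehicle libraries labelled Setd1bKO, at 10.3, 9.65 and 10.2 TPM against 3.8, 5.13 and 4.7 TPM in control. Its difference was not called with LPS (0.20, adjusted p = 0.49) or with Dex and LPS (0.13, adjusted p = 0.68). A gene-level TPM does not show whether a deleted gene still leaves a transcript. Directions drawn from that label thus rest on libraries in which no lower Setd1b level was called. The summed level of 10 macrophage markers, all of them listed, was 38300 to 39200 TPM in control and 25200 to 25900 TPM in Setd1bKO marrow-derived vehicle libraries. In RAW264.7 cells at 16 h, where 9 markers were listed, it was 2980 to 3450 TPM in wild-type and 23500 to 24600 TPM in Setd1aDel vehicle libraries. At 6 h in vehicle it was 9720 to 10000 TPM in wild-type and 12100 to 12900 TPM in Setd1aDel. With LPS it was 25600 to 27400 TPM in control marrow-derived cells, and 4960 to 5310 TPM in wild-type RAW264.7 cells at 16 h. Of the 9 neutrophil markers 2 were listed in the marrow-derived table, where their sum in control libraries was 86.2 to 89.7 TPM in vehicle, 170 to 179 TPM with LPS and 302 to 336 TPM with Dex and LPS. The RAW264.7 Dex table listed 1 of them and lacked Camp, Elane, Ltf, Ly6g, Mmp8, Mpo, Ngp and S100a9. Its value is thus that of a single gene and does not measure a cell type. That gene was at 2.22 to 4.07, 4.91 to 5.45 and 20 to 22.1 TPM in the wild-type libraries at 16 h in the same order. In Setd1aDel at 16 h it was at 2.19 to 2.57, 98.5 to 106 and 317 to 384 TPM, and the sum in Setd1bKO was 42.6 to 48.5, 166 to 191 and 461 to 531 TPM. In RAW264.7 cells at 6 h with LPS the listed gene was at 73.3 to 79.9 TPM in wild-type and 46.2 to 54 TPM in Setd1aDel. The part of either marker list in the changes below was not tested. Of the lymphocyte, dendritic and stromal or erythroid markers 0 were listed in the Dex tables.

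Changes below are log2 differences of group means of log2(TPM + 1) from limma, with standard errors (SE) and adjusted p-values (Benjamini-Hochberg over all genes tested in the comparison). A gene was called at an adjusted p under 0.05. TPM are shares of a fixed total, so a strong rise of some genes lowers the rest. With LPS the median of all tested genes was -0.49 and -0.37 in control and Setd1bKO marrow-derived cells, -0.38 and -0.41 in wild-type and Setd1aDel RAW264.7 cells at 16 h, and -0.24 and -0.21 at 6 h. With Dex on top of LPS it was 0.18 and 0.15 in control and Setd1bKO marrow-derived cells and at most 0.09 in RAW264.7 cells. Changes were therefore also computed after median-of-ratios scaling of the same TPM, which sets the typical gene to about 0, and these are called scaled values. In bulk RNA, fewer cells of a type and less RNA per cell cannot be told apart.

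Of the 9 genes 5 had start-site windows in the RefSeq table (GRCm38.p6, 250 bases before to 50 after an annotated start), and Ncor1 had 2. The 2 Ncor1 windows are shown because Ncor1 is the member with more than 1 start there, and a gene-level TPM sums over both. The capitals mark TGTTCT, the reverse complement of AGAACA, the half-site that the receptor recognises.
Ncor1 at chr11:62438466-62438765, minus strand: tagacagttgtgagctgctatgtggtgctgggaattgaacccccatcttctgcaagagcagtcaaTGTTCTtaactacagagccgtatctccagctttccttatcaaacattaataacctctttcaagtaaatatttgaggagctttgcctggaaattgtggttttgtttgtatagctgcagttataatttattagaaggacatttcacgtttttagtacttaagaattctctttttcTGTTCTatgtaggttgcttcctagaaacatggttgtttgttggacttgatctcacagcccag
Ncor1 at chr11:62457283-62457582, minus strand: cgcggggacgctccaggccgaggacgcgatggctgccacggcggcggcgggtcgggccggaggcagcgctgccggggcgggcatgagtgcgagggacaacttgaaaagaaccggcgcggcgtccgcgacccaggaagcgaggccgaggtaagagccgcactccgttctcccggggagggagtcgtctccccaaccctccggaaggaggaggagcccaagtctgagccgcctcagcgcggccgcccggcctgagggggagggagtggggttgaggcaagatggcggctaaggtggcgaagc
The first window had a GC content of 38.3% and 2 CpG, with TGTTCT at positions 66 and 239 from its 5′ end. The second had 72.3% GC, 36 CpG and no half-site. The half-site AGAACA, on either strand, was in 2 of the 6 member windows (Ncor1 and Ncoa1) and in 19.0% of all 32851 windows. The AP-1 site TGACTCA, which does not overlap the half-site, was in 0 of the 6 and in 5.2% of all windows. These counts describe letters in the windows and not binding.

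Per transcript length, Smarca4 and Ncor1 ranked 1 to 3 among the 9 in each of the 24 group means, and Hdac3 ranked 2 to 5. Smarca4 (chromosome 9, 21616169 to 21704230, plus strand, GRCm38) spanned 20.5 to 72.9 TPM over the 72 libraries. Ncor1 (chromosome 11, 62316426 to 62458541, minus) spanned 15.7 to 84.4 TPM, and Hdac3 (chromosome 18, 37935844 to 37955016, minus) 13 to 55.3 TPM. Ncoa3 (chromosome 2, 165992636 to 166073242, plus) spanned 8.45 to 34.8 TPM and ranked 4 to 6. Ep300 (chromosome 15, 81585351 to 81652077, plus) followed with 7.08 to 22.2 TPM, and Ncoa2 (chromosome 1, 13139105 to 13374083, minus) with 2.97 to 15.6 TPM. The lowest were Crebbp (chromosome 16, 4081328 to 4213997, minus) at 1.37 to 5.5 TPM and Ncoa1 (chromosome 12, 4247362 to 4477182, minus) at 0.000002 to 4.5 TPM. Nr3c1 (chromosome 18, 39410545 to 39519421, minus) moved most in this order, from rank 1 to rank 6, with 8.76 to 98.8 TPM. All 9 genes are protein coding.

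Neighbours in the order were often not separate. In control vehicle marrow-derived libraries the mean levels were Ncor1 29.9, Nr3c1 25.2, Smarca4 21.7, Hdac3 21 and Ncoa3 19.5 TPM, and each of these overlapped the next in its 3 libraries. Below them Ep300 at 13.6, Ncoa2 at 9.3, Crebbp at 2.92 and Ncoa1 at 1.23 TPM stood apart from each other. In wild-type RAW264.7 vehicle libraries at 16 h the order was Smarca4 62.5, Ncor1 54, Hdac3 46.2, Ncoa3 33.8, Nr3c1 20.5, Ep300 15, Ncoa2 12, Crebbp 4.96 and Ncoa1 1.39 TPM. There Nr3c1 overlapped Ep300, and Ep300 overlapped Ncoa2. The marrow-derived, RAW264.7 Dex and IFNB1 levels stand in 3 tables that were normalized separately.

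The receptor gene rose with LPS in marrow-derived macrophages. In control cells Nr3c1 was at 25.5, 33.9 and 16.3 TPM in vehicle and at 51.1, 64.6 and 70.3 TPM with LPS, and the groups did not overlap. The change was 1.31 (SE 0.24, adjusted p = 0.000121), and the scaled value was 1.83 (adjusted p = 1.99e-06). In the libraries labelled Setd1bKO it went from 15, 15.1 and 13 TPM to 55.5, 62.8 and 75.6 TPM. Here every LPS library was more than 3 times any vehicle library, and the change was 2.09 (SE 0.24, adjusted p = 8.32e-07; scaled 2.46, adjusted p = 5.69e-08). The LPS response of Setd1bKO minus that of control was 0.77 (SE 0.35) and was not called (adjusted p = 0.126). With LPS, Nr3c1 held rank 1 of the 9 genes in control cells, where it had been rank 2 in vehicle.

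In RAW264.7 cells Nr3c1 behaved otherwise. In wild-type cells at 16 h it had 22.6, 23.4 and 15.5 TPM in vehicle and 8.76, 13.4 and 13.5 TPM with LPS, without overlap. This fall was called (-0.74, SE 0.22, adjusted p = 0.00614), but its scaled value of -0.35 was not (adjusted p = 0.163). In Setd1aDel at 16 h the values were 18.2, 19.7 and 10.8 TPM in vehicle against 14.7, 13.8 and 22.6 TPM with LPS. These overlapped, with a change of 0.08 (adjusted p = 0.752) and a scaled value of 0.49 (adjusted p = 0.0536). The difference of the LPS responses, Setd1aDel minus wild-type, was 0.82 (SE 0.32, adjusted p = 0.059), and 0.85 after scaling (adjusted p = 0.0499).

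At 6 h the wild-type libraries overlapped for Nr3c1, with 21.6, 27.6 and 17 TPM in vehicle and 21.6, 15.9 and 28 TPM with LPS (-0.02, SE 0.31, adjusted p = 0.95; scaled 0.23, adjusted p = 0.525). In Setd1aDel it rose from 10.4, 9.63 and 14.7 TPM to 19, 14.8 and 36.4 TPM. The rise was 0.88 (SE 0.31, adjusted p = 0.0156; scaled 1.08, adjusted p = 0.00398). The call ended without Setd1aDel LPS replicate 3, the highest library (0.52, adjusted p = 0.13), and without Setd1aDel vehicle replicate 2 (0.77, adjusted p = 0.0596). The LPS response of Setd1aDel minus wild-type was 0.90 (SE 0.43) and was not called (adjusted p = 0.276).

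Dex on top of LPS gave no call for Nr3c1 in any of the 6 comparisons. In control marrow-derived cells the libraries with Dex and LPS had 73.6, 65.8 and 93.5 TPM, which overlapped those with LPS alone (0.32, SE 0.24, adjusted p = 0.276; scaled 0.10). With LPS and Dex the libraries labelled Setd1bKO had 51.2, 98.8 and 81 TPM (0.21, adjusted p = 0.49; scaled 0.03). In wild-type RAW264.7 cells at 16 h Dex and LPS gave 16.2, 15.9 and 17.3 TPM, each above the 3 LPS libraries. That difference of 0.46 (SE 0.22) had an adjusted p of 0.104, and 0.0446 when only the compared groups were fitted, and its scaled value of 0.36 was not called (adjusted p = 0.218). Dex alone in wild-type cells at 6 h gave 10.4, 20.1 and 12.1 TPM against 21.6, 27.6 and 17 TPM in vehicle. The groups overlapped, and the change of -0.63 (SE 0.31; scaled -0.58) was not called (adjusted p = 0.121), although without Dex replicate 2 it was (-0.89, adjusted p = 0.0429). In Setd1aDel, the difference with Dex alone was 0.11 (SE 0.31, adjusted p = 0.837; scaled 0.12).

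Between genotypes, Nr3c1 was lower in vehicle in the libraries labelled Setd1bKO (-0.71, SE 0.24, adjusted p = 0.0438; scaled -0.69, adjusted p = 0.0388), where each of the 3 lay below each of the control libraries. Leaving out control vehicle replicate 1 or 2, or any of the 3 vehicle libraries labelled Setd1bKO, ended this call (adjusted p from 0.0742 to 0.206). In Setd1aDel vehicle libraries at 6 h it was lower by the same order (-0.87, SE 0.31, adjusted p = 0.0484), but the scaled value was not called (-0.80, adjusted p = 0.0746). The call also ended without wild-type vehicle replicate 1 or 2 or Setd1aDel vehicle replicate 1 or 2 (adjusted p from 0.0985 to 0.177), and with a replicate block (adjusted p = 0.054). At 16 h the vehicle libraries overlapped, at 10.8 to 19.7 TPM in Setd1aDel and 15.5 to 23.4 TPM in wild-type. With LPS at 16 h Setd1aDel was higher without overlap, at 13.8 to 22.6 TPM against 8.76 to 13.5 TPM. Neither 16 h difference was called on TPM, and their scaled values are not given here. With LPS, the difference between Setd1bKO and control was 0.06 (adjusted p = 0.871; scaled -0.05).

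Replicates of Nr3c1 varied more than those of most genes. On the log2 scale its residual SD was 0.33 in marrow-derived cells. In RAW264.7 cells it was 0.30 at 16 h, 0.40 at 6 h and 0.15 with IFNB1. Genes within 2-fold of its level had a median of 0.08 to 0.10, and 98.5%, 97.3%, 96.9% and 83.9% of them varied less. The residual SD of Ncoa3, Hdac3 and Smarca4 was between 0.04 and 0.10, so that smaller changes could be called for these than for the receptor.

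**Figure D1:**
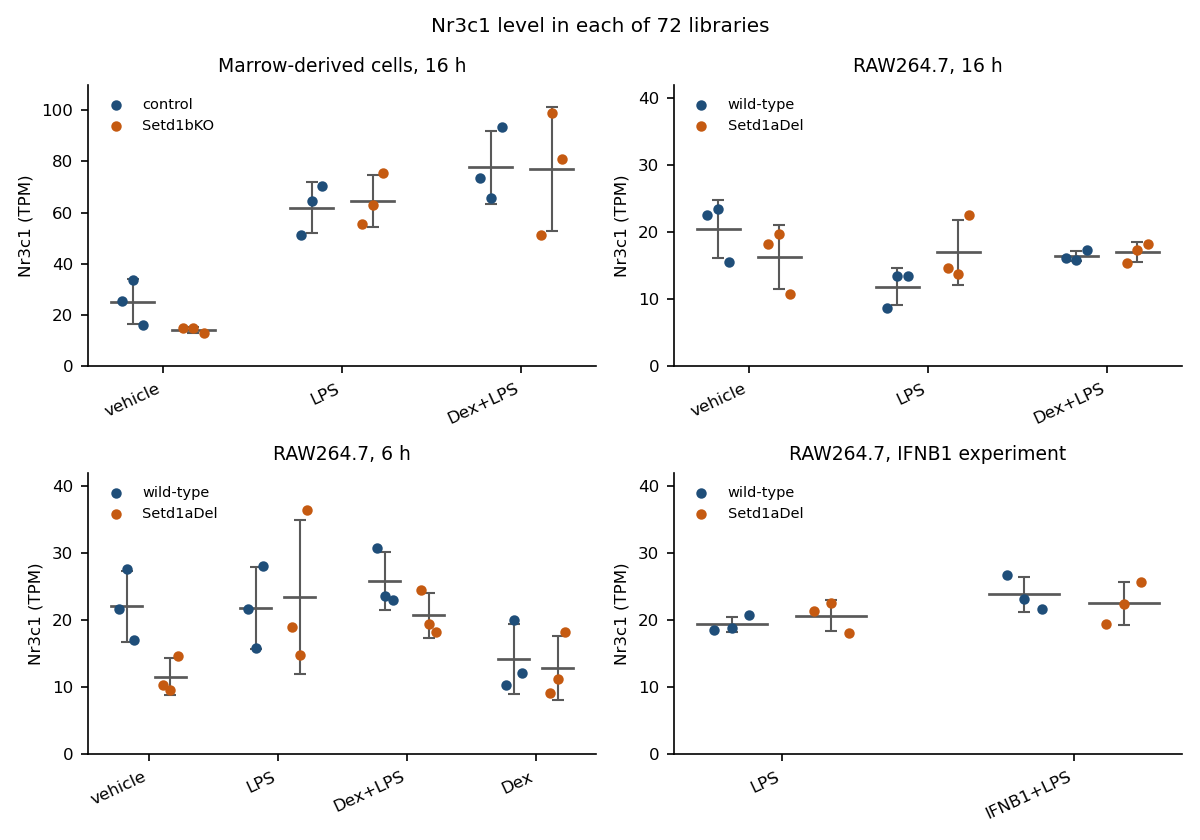
Nr3c1 level in TPM (y axis) in each of the 72 libraries, by treatment (x axis) and genotype, in 1 panel per experiment. Points are libraries, horizontal bars are means and error bars are the SD of 3 libraries. With LPS the control marrow-derived libraries sit at 51.1 to 70.3 TPM, above the vehicle libraries at 16.3 to 33.9 TPM, while wild-type RAW264.7 libraries at 16 h sit at 8.76 to 13.5 TPM with LPS, below vehicle at 15.5 to 23.4 TPM.

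Counted over the 9 genes, LPS called 7 in control marrow-derived cells (2 up, 5 down), where 85.3% of all genes tested were called. After scaling 5 were called (4 up, 1 down), beside 77.8% of all genes. In the libraries labelled Setd1bKO 6 were called (2 up, 4 down; 83.1% of all genes), and after scaling 4, all up (78.8%). At 16 h 7 were called in wild-type RAW264.7 cells (83.5%) and 7 in Setd1aDel (84.8%), all of them down. After scaling wild-type had 1 up and 4 down (77% of all genes) and Setd1aDel 3 up and 3 down (80.3%). At 6 h wild-type cells had 4 down and 0 up (71.8%) and Setd1aDel 3 up and 4 down (69.6%). After scaling these became 3 up and 3 down (68%) and 4 up and 3 down (66.4%). The shares of members called were thus near or below those of all genes, with 7 of 9 in Setd1aDel at 6 h a little above its 69.6%. Over all genes scaling turned 1887 up and 5925 down in control marrow-derived cells into 3564 and 3556. It turned 2281 and 5327 in Setd1bKO into 3586 and 3623. At 16 h 1561 and 5921 in wild-type became 3478 and 3422, and 1648 and 5949 in Setd1aDel became 3638 and 3563. At 6 h 1751 and 4700 in wild-type became 3072 and 3038, and 1834 and 4417 in Setd1aDel became 2967 and 2993.

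**Figure D2:**
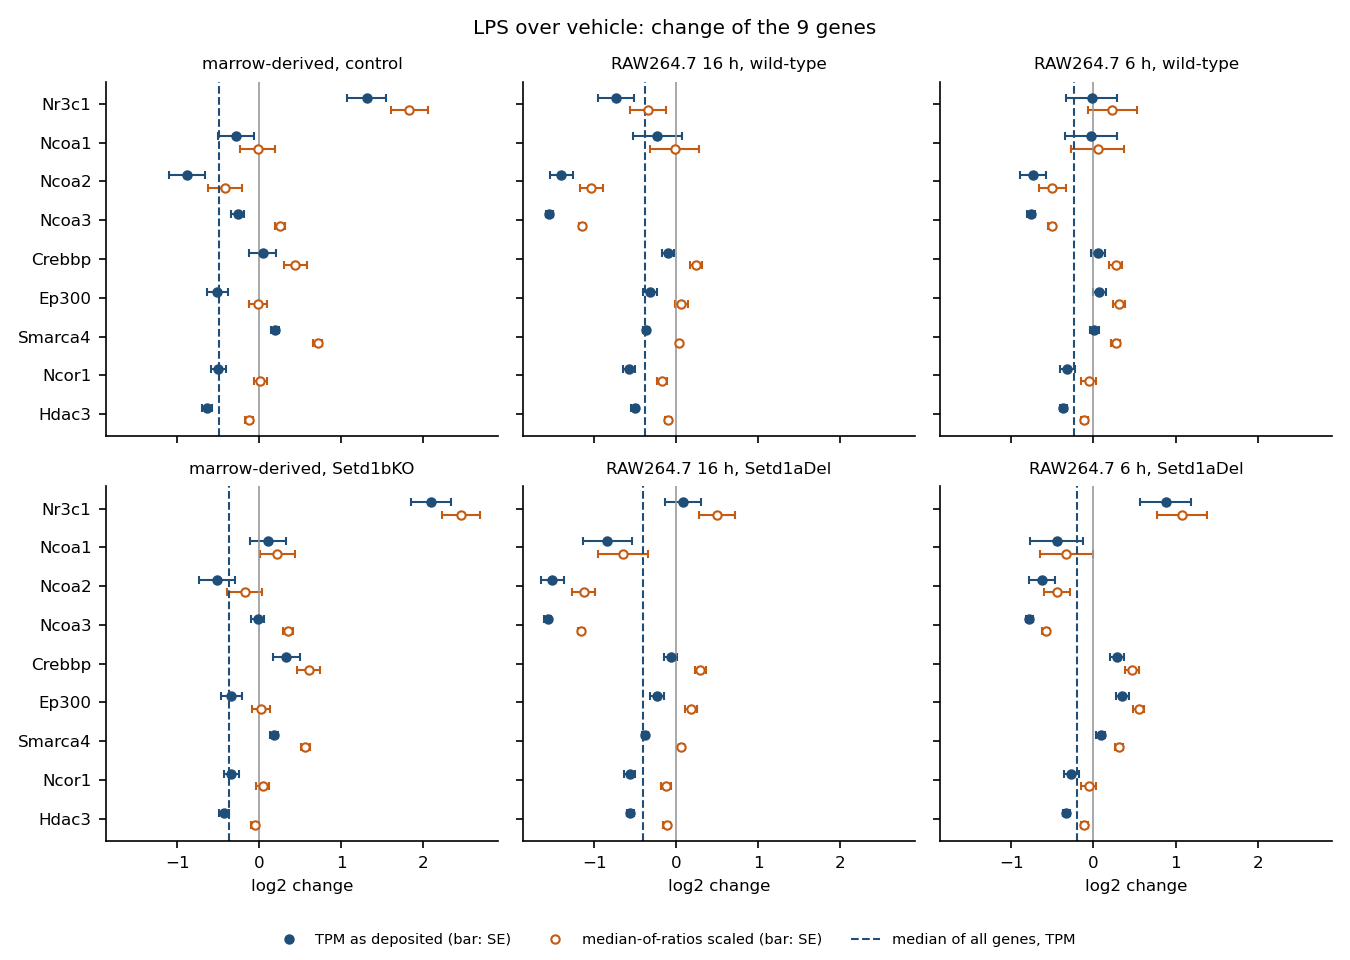
Log2 change with LPS over vehicle (x axis) of the 9 genes (y axis), in 1 panel per comparison. Filled points are TPM, open points are values after median-of-ratios scaling, bars are standard errors and the dashed line is the median of all genes tested on TPM. Ncoa3 lies at -1.55 in wild-type RAW264.7 cells at 16 h (scaled -1.15) but at -0.26 in control marrow-derived cells, where scaling turns it to 0.25, and Smarca4 at 16 h moves from -0.37 to 0.03.

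Of the p160 coactivators, Ncoa3 fell with LPS on both scales in RAW264.7 cells, while in marrow-derived cells its direction depended on the scale. In wild-type cells at 16 h it went from 32.3, 34.8 and 34.3 TPM in vehicle to 10.7, 11.2 and 10.8 TPM with LPS. The LPS libraries lay far below the vehicle libraries, with a change of -1.55 (SE 0.044, adjusted p = 1.99e-14; scaled -1.15, adjusted p = 1.09e-13). Setd1aDel at 16 h gave 27.7, 29 and 27.2 TPM against 8.94, 8.62 and 8.61 TPM (-1.57, adjusted p = 1.39e-14; scaled -1.16, adjusted p = 9.15e-14). At 6 h the wild-type libraries went from 22.9, 23.6 and 22.7 TPM to 13.2, 13.5 and 12.9 TPM, a smaller change of -0.76 (SE 0.045, adjusted p = 8.91e-12; scaled -0.51, adjusted p = 2.03e-09). In Setd1aDel at 6 h the change was -0.78 (adjusted p = 6.08e-12; scaled -0.58, adjusted p = 3.33e-10). The 16 h and 6 h experiments had the same 6 h of LPS and differed in how long ethanol was present. They were separate experiments, so ethanol time and experiment cannot be told apart. Their wild-type vehicle libraries also differed in summed macrophage markers, at 2980 to 3450 TPM at 16 h and 9720 to 10000 TPM at 6 h. The LPS changes of the 2 experiments were not tested against each other. In control marrow-derived cells 17.8, 20.4 and 20.4 TPM stood against 15.8, 16.2 and 16.4 TPM, a change of -0.26 (SE 0.079, adjusted p = 0.00699) that became a rise of 0.25 after scaling (adjusted p = 0.00182). In Setd1bKO the change was -0.02 (adjusted p = 0.807), with a scaled rise of 0.35 (adjusted p = 9.83e-05).

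Ncoa2 was lower with LPS in all 6 comparisons on TPM, and in RAW264.7 cells after scaling too. In wild-type cells at 16 h it had 11.2, 10.7 and 14.2 TPM in vehicle and 4.14, 3.99 and 3.56 TPM with LPS (-1.40, SE 0.14, adjusted p = 1.45e-07; scaled -1.04, adjusted p = 7.67e-06). In Setd1aDel it went from 13.8, 11 and 12.7 TPM to 3.49, 2.97 and 4.87 TPM (-1.51, adjusted p = 5.49e-08; scaled -1.13, adjusted p = 2.77e-06). In neither genotype did the groups overlap. At 6 h 13.4, 9.17 and 11.9 TPM became 7.44, 6.67 and 5.26 TPM in wild-type (-0.74, SE 0.16, adjusted p = 0.000382; scaled -0.50, adjusted p = 0.0102). Setd1aDel changed by -0.63 (adjusted p = 0.00174; scaled -0.44, adjusted p = 0.0227). Control marrow-derived cells went from 7.32, 10.2 and 10.4 TPM to 4.17, 5.05 and 4.41 TPM, again without overlap (-0.88, SE 0.22, adjusted p = 0.0018), but the scaled value of -0.42 was not called (adjusted p = 0.0831). In the libraries labelled Setd1bKO the change was -0.51 (adjusted p = 0.0477; scaled -0.18, adjusted p = 0.443), and the call ended without vehicle replicate 1 or 3 or LPS replicate 1 or 2 (adjusted p from 0.0877 to 0.133).

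Ncoa1 was near the floor of the Dex tables. In control marrow-derived cells it had 1.46, 0.811 and 1.43 TPM in vehicle and 1.02, 0.414 and 1.12 TPM with LPS, which overlapped (-0.28, SE 0.22, adjusted p = 0.235). Single libraries elsewhere were listed close to 0 beside replicates at about 1 TPM. Its value in the first wild-type vehicle library at 6 h was 0.000002 TPM, against 0.599 and 1.21 TPM in the other two. In the IFNB1 table it was at 3 to 4.5 TPM in all 12 libraries. Whether these near-zero values are estimates that failed was not tested. The only LPS call, in Setd1aDel at 16 h (-0.84, SE 0.30, adjusted p = 0.0164), was not called after scaling (-0.65, adjusted p = 0.0552) and ended without Setd1aDel vehicle replicate 2 (adjusted p = 0.0864) or LPS replicate 1 (adjusted p = 0.09).

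Of the acetyltransferases, Crebbp had called rises with LPS after scaling in all 6 comparisons. On TPM Ep300 fell in marrow-derived cells and in RAW264.7 cells at 16 h, and rose in Setd1aDel at 6 h. After scaling no fall of Ep300 was called. Crebbp in wild-type RAW264.7 cells at 16 h had 4.64, 5.5 and 4.75 TPM in vehicle and 4.62, 4.47 and 4.54 TPM with LPS. The change of -0.10 was not called (adjusted p = 0.222), while the scaled value was a rise of 0.24 (adjusted p = 0.005). It was called on TPM in 1 of the 6 comparisons, Setd1aDel at 6 h, where 4.06, 3.39 and 4.15 TPM became 4.86, 4.95 and 5.03 TPM (0.29, SE 0.085, adjusted p = 0.00498; scaled 0.47, adjusted p = 5.03e-05). Its scaled value was a called rise in all 6 comparisons, between 0.24 and 0.60.

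Ep300 had 12.6, 14.8 and 13.4 TPM in control marrow-derived vehicle libraries and 9.18, 9.39 and 9.05 TPM with LPS. The groups lay apart on TPM (-0.51, SE 0.13, adjusted p = 0.00196), and the scaled value was -0.02 (adjusted p = 0.889). In the libraries labelled Setd1bKO -0.34 (adjusted p = 0.026) turned to 0.02 after scaling. That call also ended without vehicle replicate 1 (adjusted p = 0.137) or LPS replicate 1 (adjusted p = 0.091) or 2 (adjusted p = 0.0612). At 16 h the wild-type change of -0.32 (adjusted p = 0.00308) turned to 0.06 after scaling (adjusted p = 0.465), and the Setd1aDel change of -0.24 (adjusted p = 0.0182) to 0.18 (adjusted p = 0.0476). The latter call on TPM ended without Setd1aDel LPS replicate 2 (adjusted p = 0.0807) or 3 (adjusted p = 0.0598). At 6 h Ep300 rose in Setd1aDel from 12.1, 11.4 and 12.5 TPM to 14.5, 16 and 16.3 TPM, without overlap (0.35, SE 0.079, adjusted p = 0.000638; scaled 0.55, adjusted p = 1.28e-06). In wild-type at 6 h the change was 0.07 (adjusted p = 0.45; scaled 0.31, adjusted p = 0.000808).

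Smarca4, the remodeller's ATPase, rose in marrow-derived cells with LPS on both scales. Control libraries went from 20.5, 22.6 and 22 TPM to 24.1, 25.3 and 25.3 TPM (0.19, SE 0.053, adjusted p = 0.00334; scaled 0.71, adjusted p = 4.58e-09). The groups did not overlap, and in the libraries labelled Setd1bKO the change was 0.18 (adjusted p = 0.00627; scaled 0.56, adjusted p = 9.46e-08). In wild-type RAW264.7 cells at 16 h 61.7, 64.6 and 61 TPM became 49, 47.4 and 47.8 TPM, which is -0.37 (SE 0.034, adjusted p = 5.14e-08) on TPM and 0.03 after scaling (adjusted p = 0.263). Setd1aDel at 16 h went from -0.38 (adjusted p = 4.16e-08) to a scaled 0.06 (adjusted p = 0.0489). At 6 h it was not called on TPM in wild-type (0.01) or Setd1aDel (0.09), and its scaled values were called rises of 0.27 and 0.31.

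Of the corepressor pair, Ncor1 fell with LPS on TPM in all 6 comparisons, while its scaled values lay between -0.17 and 0.04. In control marrow-derived cells 27.6, 32.2 and 30 TPM became 19.3, 21.1 and 22.1 TPM, apart from each other (-0.50, SE 0.094, adjusted p = 0.000118), and the scaled value was 0.01 (adjusted p = 0.88). Setd1bKO turned from -0.34 (adjusted p = 0.0032) to a scaled 0.04 (adjusted p = 0.691). In wild-type cells at 16 h 49.2, 58.5 and 54.3 TPM became 38.1, 34.6 and 34.6 TPM (-0.58, SE 0.071, adjusted p = 1.51e-06), and the scaled value of -0.17 was still called (adjusted p = 0.0178). In Setd1aDel at 16 h -0.57 (adjusted p = 1.83e-06) went to -0.13 (adjusted p = 0.0616). At 6 h the changes of -0.32 in wild-type (adjusted p = 0.00447) and -0.27 in Setd1aDel (adjusted p = 0.0127) both went to -0.06, which was not called. The Setd1aDel call ended on TPM without LPS replicate 1 (adjusted p = 0.0577).

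Hdac3 also fell in all 6, with small replicate spread. Control marrow-derived libraries had 22.2, 20 and 20.9 TPM in vehicle and 13, 13.3 and 13.1 TPM with LPS (-0.64, SE 0.058, adjusted p = 3.14e-08; scaled -0.13, adjusted p = 0.0225). Each LPS library lay below each vehicle library. Wild-type RAW264.7 cells went from 44.1, 48.6 and 45.8 TPM to 31.5, 32.9 and 32.1 TPM at 16 h (-0.51, SE 0.043, adjusted p = 1.53e-08; scaled -0.10, adjusted p = 0.0252). At 6 h they went from 44.3, 45.8 and 45.6 TPM to 36.6, 34.9 and 33.1 TPM (-0.37, adjusted p = 2.28e-07; scaled -0.11, adjusted p = 0.0262). The other 3 changes were -0.43 in Setd1bKO, -0.56 in Setd1aDel at 16 h and -0.33 in Setd1aDel at 6 h. Of these the Setd1bKO value was not called after scaling (-0.05, adjusted p = 0.361), and the Setd1aDel values were (-0.12 and -0.11).

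Dex on top of LPS called fewer of the 9 genes. In control marrow-derived cells 3 were called (1 up, 2 down) where 59.9% of all genes were, and after scaling 4, all down (47.4%). In the libraries labelled Setd1bKO 2 were called (1 up, 1 down; 52.7%), and after scaling 3, all down (39.1%). At 16 h 2 were called in each genotype, both up (wild-type 47.6% and Setd1aDel 44.7% of all genes). After scaling wild-type had 1 up and 2 down (43.1%) and Setd1aDel 1 up and 1 down (44.3%). At 6 h limma called 0 in wild-type (25.3%), with 0 at an unadjusted p under 0.05, and after scaling 1, down (25%). The authors' deposited table there had Ncoa3 at -0.14 (adjusted p = 0.0171) and Smarca4 at -0.14 (adjusted p = 0.0336), both under 0.05. Setd1aDel at 6 h had 2 up and 3 down (32.9%), and 2 up and 4 down after scaling (31.9%). When only the compared groups were fitted, 1 of these 5 was called. Dex alone over vehicle called 3 in wild-type (36.8%) and 3 in Setd1aDel (30.2%), all down, and 3 in each after scaling (35.4% and 30.4%). Over all genes, scaling turned 4100 up and 1389 down with Dex in control marrow-derived cells into 1883 and 2455, and 3591 and 1234 in Setd1bKO into 1403 and 2177. At 16 h 3159 and 1107 became 1774 and 2087 in wild-type, and 2673 and 1333 became 2028 and 1939 in Setd1aDel. At 6 h 1320 and 953 became 999 and 1244 in wild-type, 1988 and 965 became 1447 and 1420 in Setd1aDel, and 1080 and 2223 with Dex alone became 1423 and 1759 in wild-type.

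Ncoa2 rose with Dex in LPS-treated RAW264.7 cells at 16 h. In wild-type cells the libraries with Dex and LPS had 6.64, 5.4 and 6.33 TPM, above the 4.14, 3.99 and 3.56 TPM with LPS (0.54, SE 0.14, adjusted p = 0.00565; scaled 0.45, adjusted p = 0.0203). In Setd1aDel 5.3, 6.21 and 7.32 TPM stood above 3.49, 2.97 and 4.87 TPM (0.62, adjusted p = 0.00238; scaled 0.58, adjusted p = 0.00429). All 6 Dex libraries remained below all 6 vehicle libraries, which were at 10.7 to 14.2 TPM. The authors' deposited table gave 0.54 (adjusted p = 0.00419) and 0.67 (adjusted p = 0.000391) for these 2 comparisons.

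At 6 h Ncoa2 was not called in wild-type (7.44, 6.67 and 5.26 TPM with LPS against 5.9, 7.77 and 7.98 TPM with Dex and LPS, overlapping; 0.14, SE 0.16, adjusted p = 0.575; scaled 0.11). The difference between the 16 h and 6 h Dex responses in wild-type, 0.40 (SE 0.22), was not called either (adjusted p = 0.259). In Setd1aDel at 6 h it rose from 5.01, 5.1 and 4.62 TPM to 8.39, 5.64 and 8.58 TPM (0.51, SE 0.16, adjusted p = 0.0182; scaled 0.46, adjusted p = 0.0366). That call ended without Setd1aDel LPS replicate 3 (adjusted p = 0.0577) or Dex and LPS replicate 1 (adjusted p = 0.0794) or 3 (adjusted p = 0.081). In control marrow-derived cells 4.75, 9.03 and 7.79 TPM overlapped the LPS libraries (0.53, SE 0.22, adjusted p = 0.0545), and with a replicate block the adjusted p was 0.0173. The scaled value of 0.35 had an adjusted p of 0.194.

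Ncoa3 went the other way in marrow-derived cells. Control libraries with Dex and LPS had 12.5, 13.2 and 12.9 TPM, below the 15.8, 16.2 and 16.4 TPM with LPS (-0.31, SE 0.079, adjusted p = 0.00366; scaled -0.51, adjusted p = 6.19e-06). The groups did not overlap. In Setd1bKO 12.3, 15.5 and 14.6 TPM lay below 15.7, 16.9 and 17.4 TPM (-0.23, adjusted p = 0.026; scaled -0.40, adjusted p = 0.000114). The TPM call there ended without LPS replicate 2 (adjusted p = 0.0666) or 3 (adjusted p = 0.0832), without Dex and LPS replicate 1 (adjusted p = 0.128), or when only the compared groups were fitted (adjusted p = 0.0989). The authors' deposited table gave -0.55 (adjusted p = 6.66e-16) in control and -0.42 (adjusted p = 1.37e-09) in Setd1bKO. In RAW264.7 cells Dex with LPS changed Ncoa3 by 0.05 or less upward and 0.09 or less downward, with no call on TPM. Scaled values of -0.13 were called in wild-type at 16 h (adjusted p = 0.00915) and at 6 h (adjusted p = 0.0321).

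Hdac3 rose with Dex and LPS on TPM but scarcely against the typical gene. Control marrow-derived libraries had 15.3, 14.9 and 16 TPM, above the 13, 13.3 and 13.1 TPM with LPS (0.21, SE 0.058, adjusted p = 0.00499), and the scaled value was 0.01 (adjusted p = 0.878). In Setd1bKO 0.24 (adjusted p = 0.00299) became 0.07 (adjusted p = 0.32). At 16 h 0.11 in wild-type (adjusted p = 0.0366) became 0.01 and 0.11 in Setd1aDel (adjusted p = 0.0488) became 0.05, neither of them called. These TPM calls ended without any of 4 wild-type libraries (LPS replicates 1 and 3, Dex and LPS replicates 1 and 3; adjusted p from 0.0709 to 0.136) and without any of 5 Setd1aDel libraries (all but Dex and LPS replicate 2; adjusted p from 0.0522 to 0.189). With a replicate block they ended too (adjusted p = 0.0564 and 0.0719). In Setd1aDel at 6 h Hdac3 went from 32.2, 32 and 32.1 TPM to 38.5, 35.7 and 35.5 TPM, which was called on both scales (0.18, SE 0.043, adjusted p = 0.00258; scaled 0.12, adjusted p = 0.0386) and was lost when only the compared groups were fitted (adjusted p = 0.0653). The authors' deposited table gave 0.12 there (adjusted p = 0.0803).

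The remaining members gave few calls with Dex and LPS. Smarca4 changed by -0.16 in Setd1aDel at 6 h (SE 0.054, adjusted p = 0.0304; scaled -0.22, adjusted p = 0.00191). The TPM call ended without Setd1aDel LPS replicate 1 (adjusted p = 0.107) or Dex and LPS replicate 1 (adjusted p = 0.0886) or 3 (adjusted p = 0.0623). Its scaled values were called falls also in control marrow-derived cells (-0.27, adjusted p = 0.000709; -0.06 on TPM), Setd1bKO (-0.17, adjusted p = 0.019; 0.01 on TPM), and wild-type (-0.11, adjusted p = 0.00468; 0 on TPM) and Setd1aDel at 16 h (-0.10, adjusted p = 0.00799; -0.04 on TPM). The authors' deposited tables gave -0.28 (adjusted p = 1.51e-06), -0.18 (adjusted p = 0.00468), -0.11 (adjusted p = 3.5e-05) and -0.11 (adjusted p = 0.000129) in the same order. Crebbp and Ep300 were called in Setd1aDel at 6 h, where both fell. In the other 5 comparisons Crebbp changed by between -0.07 and 0.27 and Ep300 by between -0.06 and 0.11, without a call. The Dex responses of the genotypes at 6 h were compared for each gene, and neither difference was called. In Setd1aDel at 6 h Ep300 went from 14.5, 16 and 16.3 TPM to 12.5, 14.1 and 11.3 TPM (-0.29, SE 0.079, adjusted p = 0.00849; scaled -0.35, adjusted p = 0.000908), and without Dex and LPS replicate 3 the adjusted p was 0.0548. Crebbp went from 4.86, 4.95 and 5.03 TPM to 3.29, 4.45 and 3.7 TPM (-0.31, SE 0.085, adjusted p = 0.00777; scaled -0.37, adjusted p = 0.00186), and without Dex and LPS replicate 1 the adjusted p was 0.0583.

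Ncor1 was not called on TPM in any of the 6, with scaled values of -0.29 in control marrow-derived cells (adjusted p = 0.00818; -0.08 on TPM) and -0.24 in Setd1aDel at 6 h (adjusted p = 0.0408; -0.18 on TPM). Ncoa1 in control marrow-derived cells went from 1.02, 0.414 and 1.12 TPM to 0.0823, 0.0446 and 0.354 TPM with Dex. Every Dex library was below every LPS library (-0.66, SE 0.22, adjusted p = 0.016; scaled -0.78, adjusted p = 0.0071), and the call ended without LPS replicate 1 (adjusted p = 0.0572) or 3 (adjusted p = 0.0672) or Dex and LPS replicate 2 (adjusted p = 0.056). In Setd1bKO 0.311, 0.222 and 0.976 TPM became 0.0677, 0.000006 and 0.000016 TPM. Its change of -0.52 was not called (adjusted p = 0.0537; scaled -0.57, adjusted p = 0.0467). The pseudocount of 1 TPM holds such changes down, and with 0.1 the Setd1bKO value was -2.14 (adjusted p = 0.0159). The authors' deposited table gave -2.62 (adjusted p = 0.115) in control and -4.53 (adjusted p = 0.0065) in Setd1bKO.

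**Figure D3:**
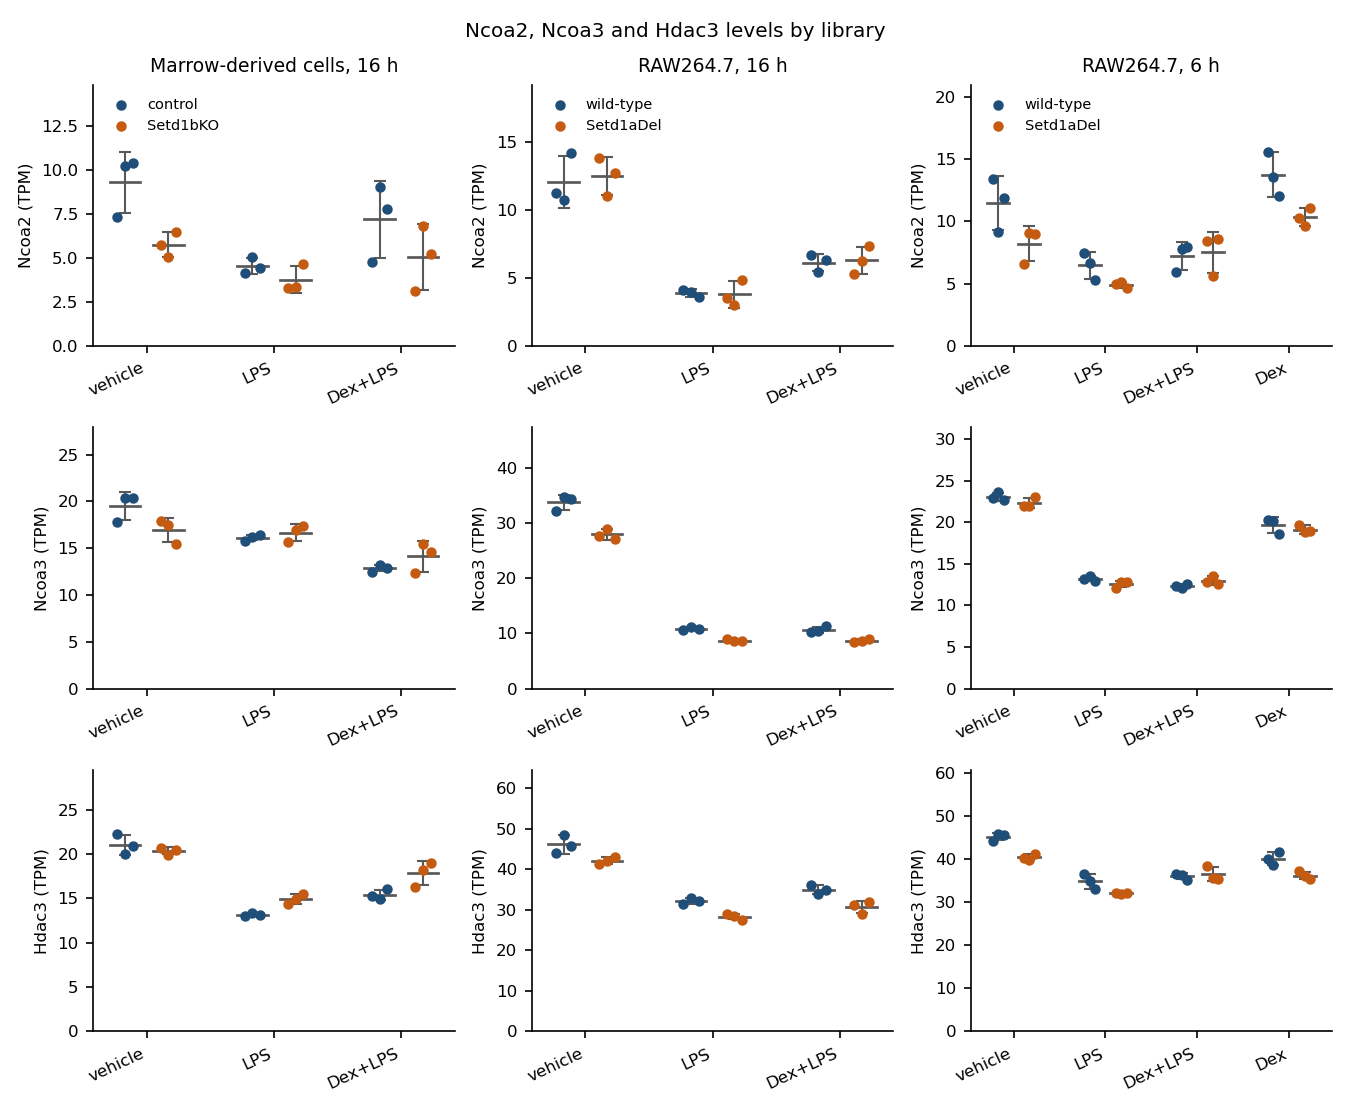
Levels in TPM (y axis) of Ncoa2, Ncoa3 and Hdac3 (rows) in each library of the 3 Dex experiments (columns), by treatment (x axis) and genotype. Points are libraries, horizontal bars are means and error bars are the SD of 3 libraries. Ncoa2 in wild-type RAW264.7 cells at 16 h sits at 10.7 to 14.2 TPM in vehicle, 3.56 to 4.14 TPM with LPS and 5.4 to 6.64 TPM with Dex and LPS, while Ncoa3 stays at 10.3 to 11.3 TPM in the last 2 groups.

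Without LPS, Dex lowered 3 members in both RAW264.7 genotypes. Ncoa3 went from 22.9, 23.6 and 22.7 TPM to 20.3, 20.2 and 18.6 TPM in wild-type cells (-0.22, SE 0.045, adjusted p = 0.000879; scaled -0.17, adjusted p = 0.00388). Smarca4 went from 54.7, 55.1 and 58.2 TPM to 48.7, 49.2 and 44 TPM (-0.24, SE 0.054, adjusted p = 0.0016; scaled -0.19, adjusted p = 0.00481). Hdac3 went from 44.3, 45.8 and 45.6 TPM to 40.1, 38.6 and 41.7 TPM (-0.17, SE 0.043, adjusted p = 0.00422; scaled -0.12, adjusted p = 0.0288). In all 3 genes the Dex libraries lay below the vehicle libraries. Setd1aDel gave -0.22 for Ncoa3 (adjusted p = 0.00115), -0.21 for Smarca4 (adjusted p = 0.00497) and -0.16 for Hdac3 (adjusted p = 0.00906), with scaled values of -0.20, -0.20 and -0.14 that were also called. When only the compared groups were fitted, the Setd1aDel calls of Smarca4 (adjusted p = 0.0705) and Hdac3 (adjusted p = 0.0595) ended. The Dex response with LPS minus that without LPS was tested in wild-type cells and called 1 member (30.4% of all genes), Hdac3, at 0.22 (SE 0.06, adjusted p = 0.00964), and 0 after scaling (0.13, adjusted p = 0.105). Over all genes that difference had 1903 up and 830 down, and 1307 and 1289 after scaling.

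**Figure D4:**
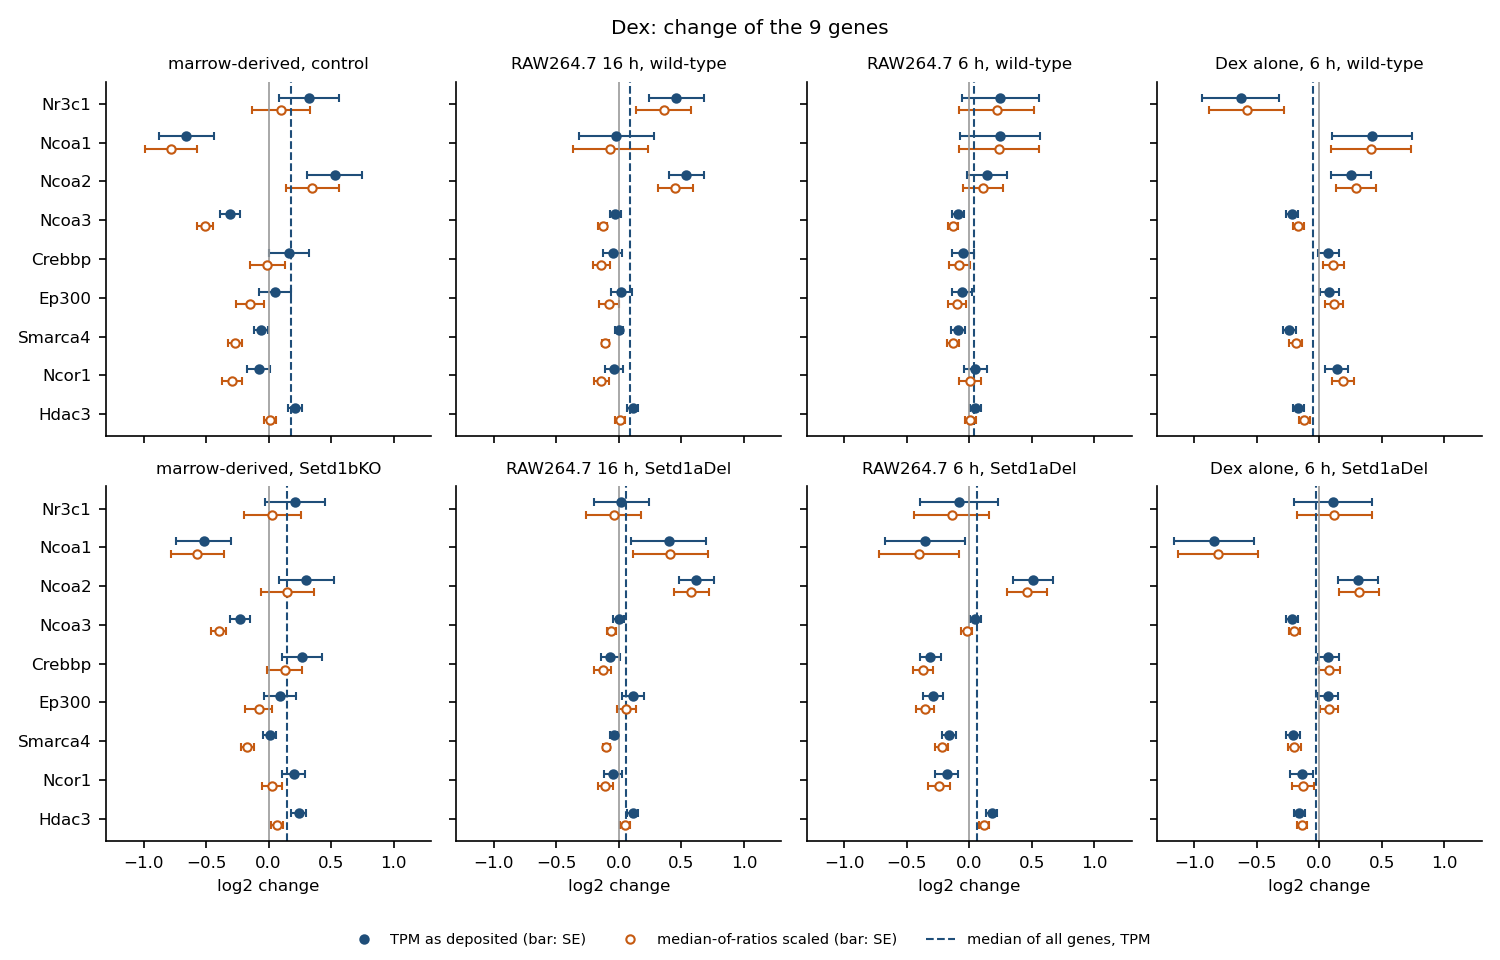
Log2 change with Dex (x axis) of the 9 genes (y axis), for Dex with LPS over LPS in 6 panels and Dex alone over vehicle in 2. Filled points are TPM, open points are values after median-of-ratios scaling, bars are standard errors and the dashed line is the median of all genes tested on TPM. Ncoa2 lies at 0.54 and 0.62 at 16 h (scaled 0.45 and 0.58), and Hdac3 at 0.21 in control marrow-derived cells, where the scaled value is 0.01.

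Between genotypes, the steadiest member differences were in RAW264.7 cells at 16 h. Ncoa3 was lower in Setd1aDel, with 27.7, 29 and 27.2 TPM against 32.3, 34.8 and 34.3 TPM in vehicle. The difference was -0.27 in vehicle (SE 0.044, adjusted p = 0.000136), -0.29 with LPS (adjusted p = 3.5e-05) and -0.27 with Dex and LPS (adjusted p = 6.85e-05), and the scaled values of -0.19, -0.20 and -0.12 were all called. Smarca4 was higher, with 71.7, 72.3 and 70.6 TPM against 61.7, 64.6 and 61 TPM in vehicle, and no treatment had overlapping groups. It differed by 0.19 in vehicle (SE 0.034, adjusted p = 0.000268), 0.19 with LPS (adjusted p = 0.000208) and 0.15 with Dex and LPS (adjusted p = 0.0013), with scaled values of 0.27, 0.30 and 0.30. Neither gene was called at 6 h in vehicle (-0.04 for each, adjusted p = 0.558 and 0.669). Hdac3 was lower at 16 h on TPM, with -0.13, -0.18 and -0.18 in the same order (adjusted p = 0.021, 0.00214 and 0.00149), and the scaled values of -0.05, -0.07 and -0.03 were not called. The vehicle value ended without wild-type vehicle replicate 2 (adjusted p = 0.107) or Setd1aDel vehicle replicate 1 (adjusted p = 0.075), or when only the compared groups were fitted (adjusted p = 0.0632). With Dex and LPS Ep300 was higher by 0.26 (adjusted p = 0.0164; scaled 0.41, adjusted p = 0.000305), and this TPM call ended without wild-type Dex and LPS replicate 1 (adjusted p = 0.0833) or Setd1aDel Dex and LPS replicate 3 (adjusted p = 0.0772). The summed macrophage markers also differed between these genotypes at 16 h, at 11700 to 13500 TPM in Setd1aDel and 4960 to 5310 TPM in wild-type with LPS. The listed neutrophil marker differed too, at 98.5 to 106 TPM against 4.91 to 5.45 TPM with LPS and 317 to 384 TPM against 20 to 22.1 TPM with Dex and LPS, and their part in these differences was not tested. Members called were 3 in vehicle (48.2% of all genes), 3 with LPS (59.9%) and 4 with Dex and LPS (64.6%). Over all genes scaling turned 1368 up and 2953 down in vehicle into 1973 and 1884, 1568 and 3798 with LPS into 2391 and 2676, and 1521 and 4266 with Dex and LPS into 2722 and 2702.

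At 6 h Setd1aDel differed from wild-type in 2 members in vehicle (22.2%), 1 with LPS (21.5%), 0 with Dex and LPS (26.2%; 0 at an unadjusted p under 0.05) and 1 with Dex (13.6%). Apart from Nr3c1 in vehicle these were Hdac3 in vehicle (-0.15, adjusted p = 0.0135) and with Dex (-0.14, adjusted p = 0.0314), neither called after scaling (-0.09 and -0.10), and Ep300 with LPS (0.24, adjusted p = 0.0362; scaled 0.27, adjusted p = 0.0111). Each of these 3 calls was lost when only the compared groups were fitted, and also without single libraries. For Hdac3 these were Setd1aDel vehicle replicate 2 (adjusted p = 0.0504) and, with Dex, wild-type replicate 1 or 3 or Setd1aDel replicate 2 or 3 (adjusted p from 0.0748 to 0.137). For Ep300 they were wild-type LPS replicate 1 or 2 or Setd1aDel LPS replicate 2 or 3 (adjusted p from 0.0962 to 0.119). Over all genes 591 were higher and 1400 lower in vehicle, which became 974 and 716 after scaling, and 825 and 1109 with LPS became 1099 and 957. With Dex 557 and 662 became 737 and 453. The neutrophil marker that was higher with LPS in Setd1aDel at 16 h was lower at 6 h. It was at 46.2 to 54 TPM against 73.3 to 79.9 TPM in wild-type with LPS, and 130 to 139 TPM against 187 to 206 TPM with Dex and LPS. The summed macrophage markers with LPS were 7520 to 7980 TPM in Setd1aDel and 8410 to 8560 TPM in wild-type. The markers' part in the 6 h differences was not tested.

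The libraries labelled Setd1bKO differed from control in 3 members in vehicle (25.3%), 1 with LPS (41.4%) and 1 with Dex and LPS (35%). In vehicle these were Nr3c1 (above), Ncor1 and Ncoa1. Ncor1 had 25.1, 22.9 and 21.9 TPM against 27.6, 32.2 and 30 TPM in control, each lower (-0.35, SE 0.094, adjusted p = 0.0125; scaled -0.32, adjusted p = 0.00741). The call ended without control vehicle replicate 2 (adjusted p = 0.0621) or Setd1bKO vehicle replicate 3 (adjusted p = 0.0543). Ncoa1, at 0.722, 0.449 and 0.000028 TPM against 1.46, 0.811 and 1.43 TPM, was lower (-0.71, SE 0.22, adjusted p = 0.026; scaled -0.63, adjusted p = 0.0426). That call ended without control vehicle replicate 1 (adjusted p = 0.0881) or 3 (adjusted p = 0.0854), without Setd1bKO vehicle replicate 3 (adjusted p = 0.132), or with a pseudocount of 0.1 (adjusted p = 0.0598). Hdac3 was higher with LPS (0.17, adjusted p = 0.0261) and with Dex and LPS (0.20, adjusted p = 0.0154). Neither was called after scaling (0.06 and 0.12) or when only the compared groups were fitted. Without control LPS replicate 1 or 3 or Setd1bKO LPS replicate 2 or 3 the first had an adjusted p from 0.0518 to 0.0969. Without control replicate 2 or Setd1bKO replicate 3 with Dex and LPS the second had 0.0637 and 0.0796. After scaling 1 member was called with LPS, and it was lower in Setd1bKO. That member was not Hdac3, and its name is not given here. With Dex and LPS 0 were called after scaling. The summed macrophage markers were 25600 to 27400 TPM in control and 17800 to 18100 TPM in Setd1bKO with LPS. With Dex and LPS the neutrophil sum was 302 to 336 TPM in control and 461 to 531 TPM in Setd1bKO, and the markers' part in these differences was not tested. Over all genes 2656 up and 1140 down with LPS became 1451 and 1825 after scaling, and 2149 and 1054 with Dex and LPS became 1178 and 1508.

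Whether responses differed between genotypes was tested for each gene, and the Dex experiments gave 0 calls among the 9. For LPS, Setd1bKO minus control had 0 (21.8% of all genes; 2 members at an unadjusted p under 0.05), Setd1aDel minus wild-type at 16 h 0 (33.4%; 1) and at 6 h 0 (5.6%; 1). After scaling 1 member was called at 16 h, Nr3c1 (0.85, adjusted p = 0.0499). For Dex under LPS the same 3 differences had 0 (6.21%; 0), 0 (10.6%; 0) and 0 (5.29%; 3). The Dex response at 16 h minus that at 6 h in wild-type cells had 0 (13.5%; 0). Over all genes scaling moved several of these splits. LPS in Setd1bKO minus control had 1503 up and 497 down and then 783 and 938, Dex had 246 and 323 and then 324 and 282, and LPS at 6 h had 267 and 236 and then 190 and 327. Dex at 16 h had 258 and 688 and then 511 and 475, Dex at 6 h had 292 and 183 and then 233 and 238, and 16 h minus 6 h had 821 and 392 and then 486 and 678.

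IFNB1 with LPS over LPS called 1 member in wild-type RAW264.7 cells (33% of all genes) and 4 in Setd1aDel (54.1%). The call in wild-type was Ncoa3 (-0.18, SE 0.053, adjusted p = 0.0219; scaled -0.10, adjusted p = 0.127), and it ended without LPS replicate 1 or 3 or IFNB1 replicate 2 or 3 (adjusted p from 0.0609 to 0.0669). In Setd1aDel Ncoa2 fell from 4.7, 6 and 5.2 TPM to 3.4, 3.4 and 3.6 TPM, without overlap (-0.49, SE 0.092, adjusted p = 0.00103; scaled -0.34, adjusted p = 0.00741). The other 3 calls in Setd1aDel, Ncoa3 (-0.25, adjusted p = 0.00213), Ncoa1 (-0.30, adjusted p = 0.0208) and Hdac3 (-0.10, adjusted p = 0.0422), were not called after scaling (-0.07, -0.15 and 0.08). Those of Ncoa1 and Hdac3 also ended without single libraries (Ncoa1 without LPS replicate 2 or 3 or IFNB1 replicate 1, adjusted p from 0.0642 to 0.0755; Hdac3 without LPS replicate 1 or 3 or IFNB1 replicate 1 or 3, adjusted p from 0.103 to 0.129). The all-gene median was -0.09 in wild-type and -0.18 in Setd1aDel. Over all genes 1038 up and 2571 down in wild-type became 1601 and 1353 after scaling, and 1145 and 4763 in Setd1aDel became 2397 and 2165.

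Nr3c1 with IFNB1 had 26.7, 23.1 and 21.7 TPM against 18.5, 18.9 and 20.7 TPM with LPS alone in wild-type, each higher. The change of 0.28 (SE 0.11) was not called on TPM (adjusted p = 0.074) and was after scaling (0.36, adjusted p = 0.0213). In Setd1aDel 19.4, 22.4 and 25.7 TPM overlapped 21.3, 22.6 and 18.1 TPM (0.11, adjusted p = 0.413; scaled 0.30, adjusted p = 0.0375). The authors' deposited table gave 0.39 (adjusted p = 0.00162) and 0.32 (adjusted p = 0.0109).

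Between genotypes in the IFNB1 experiment, Crebbp was called with LPS, and Crebbp, Ncoa2, Ep300 and Ncor1 with IFNB1 and LPS, of which Crebbp and Ncoa2 were called after scaling too. The summed macrophage markers were 11100 to 11300 TPM in Setd1aDel and 7160 to 7270 TPM in wild-type with LPS, and 8910 to 8990 and 6470 to 6500 TPM with IFNB1 and LPS. Their part in these differences was not tested. With LPS 1 member was called between Setd1aDel and wild-type (42.6% of all genes), Crebbp, with 3.9, 4.5 and 3.5 TPM against 2.1, 1.8 and 3 TPM. The groups lay apart (0.60, SE 0.14, adjusted p = 0.00491; scaled 0.62, adjusted p = 0.00323). In the 6 h Dex experiment, with LPS at the same dose and time, the Crebbp difference was 0.20 and was not called (adjusted p = 0.106; scaled 0.22, adjusted p = 0.0587). With IFNB1 and LPS 4 were called (54.2%). Crebbp was higher again, with 3.9, 3.3 and 4.4 TPM against 2.4, 2.6 and 2.6 TPM (0.46, adjusted p = 0.0171; scaled 0.57, adjusted p = 0.0049), a call that ended on TPM without wild-type IFNB1 replicate 1 (adjusted p = 0.0506) or Setd1aDel IFNB1 replicate 3 (adjusted p = 0.0632). Ncoa2 was lower, at 3.4, 3.4 and 3.6 TPM against 5.1, 5 and 4.6 TPM (-0.40, SE 0.092, adjusted p = 0.00358; scaled -0.29, adjusted p = 0.0157). Ep300 (-0.43, adjusted p = 0.012) and Ncor1 (-0.38, adjusted p = 0.0437) were lower on TPM and were not called after scaling (-0.29, adjusted p = 0.0522, and -0.24, adjusted p = 0.172). The Ep300 call ended without wild-type or Setd1aDel IFNB1 replicate 1 (adjusted p = 0.0504 each). The Ncor1 call ended without replicate 1 or 2 of either genotype with IFNB1 (adjusted p from 0.0784 to 0.169) and without the filter on low values (adjusted p = 0.0695).

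The IFNB1 response of Setd1aDel minus wild-type called 1 member (11.3% of all genes), Ep300. With LPS and then IFNB1 and LPS it had 14.4, 15 and 17.8 TPM and 22.2, 18.6 and 17.6 TPM in wild-type, and 16.4, 20.2 and 16.7 TPM and 12.5, 13.9 and 16.3 TPM in Setd1aDel. The wild-type groups overlapped, with a change of 0.29 (adjusted p = 0.0914) that was called after scaling (0.37, adjusted p = 0.0305). The Setd1aDel groups did not overlap, with a change of -0.30 (adjusted p = 0.0549; scaled -0.12, adjusted p = 0.405). The authors' deposited table gave 0.40 (adjusted p = 0.0043) in wild-type and -0.13 (adjusted p = 0.389) in Setd1aDel. The difference of responses was -0.59 (SE 0.17, adjusted p = 0.0495). It was not called after scaling (-0.50, adjusted p = 0.0767), with a pseudocount of 0.1 (adjusted p = 0.0502), without the filter (adjusted p = 0.0784), with a replicate block (adjusted p = 0.0788), or without any of 10 of the 12 libraries (all but wild-type LPS replicate 3 and Setd1aDel IFNB1 replicate 3; adjusted p from 0.0534 to 0.112). Over all genes that difference had 362 up and 875 down, and 621 and 329 after scaling. Between genotypes 1934 up and 2715 down with LPS became 2294 and 2251, and 1725 and 4190 with IFNB1 became 2611 and 2365.

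The other genes of the pathway were taken as 6 lists (123 genes, 2 of them on more than 1 list), and the calls are given for control or wild-type cells. Of the other SWI/SNF subunits 19 of 21 fell and 1 rose with LPS in RAW264.7 cells at 16 h, where 83.5% of all genes were called (77% scaled; median -0.58 beside -0.38 of all genes). At 6 h 18 fell and 1 rose, where 71.8% were called (68% scaled; median -0.43 beside -0.24). After scaling 14 fell and 2 rose at 16 h (median -0.19), and 11 fell and 3 rose at 6 h (median -0.18). In marrow-derived cells 13 of 20 fell and 2 rose, where 85.3% of all genes were called (77.8% scaled; median -0.34 beside -0.49), but after scaling 4 fell and 10 rose (median 0.18). Smarca2 (BRM), the other ATPase that can drive the complex, fell in each on both scales, from 42.4 to 12.7 TPM in control marrow-derived cells (-1.67; scaled -1.16), from 13 to 2.75 TPM at 16 h (-1.91; scaled -1.55) and from 18.1 to 7.6 TPM at 6 h (-1.14; scaled -0.90). With Dex on top of LPS 12 of 21 subunits rose and 1 fell at 16 h, where 47.6% of all genes were called (median 0.22 beside 0.09 of all genes; scaled 10 and 1, 43.1%). In marrow-derived cells 6 rose and 1 fell, where 59.9% were called (scaled 3 and 4, 47.4%). With Dex alone 8 fell and 0 rose, where 36.8% were called (scaled 6 and 0, 35.4%).

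Of other corepressors 12 of 20 fell and 6 rose with LPS in control marrow-derived cells, beside 85.3% of all genes called (median -0.30; scaled 7 and 10, 77.8%, median 0.14). At 16 h 13 of 19 fell and 2 rose, beside 83.5% (median -0.38; scaled 8 and 8, 77%, median 0.02). At 6 h 11 fell and 3 rose, beside 71.8% (median -0.33; scaled 9 and 7, 68%, median -0.08). The class II deacetylase Hdac5 fell in all 3 on both scales (-3.50, -2.69 and -0.96; scaled -3.06, -2.31 and -0.71). Sap30, a subunit of the SIN3 deacetylase complex, rose in control marrow-derived cells (2.01; scaled 2.54). Other coactivators had 9 of 20 down and 5 up in control marrow-derived cells, a share called below the 85.3% of all genes (median -0.12; scaled 6 and 12, 77.8%, median 0.36). At 16 h 17 of 22 were down and 0 up, beside 83.5% (median -0.49; scaled 10 and 6, 77%, median -0.11). At 6 h 11 were down and 2 up, beside 71.8% (median -0.23; scaled 6 and 9, 68%, median 0.02). Cbx3, the heterochromatin protein HP1 gamma, fell in all 3 on both scales (-2.21, -1.60 and -1.47; scaled -1.70, -1.19 and -1.21).

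Of the receptor's chaperones 10 of 18 rose and 7 fell with LPS in control marrow-derived cells, beside 85.3% of all genes called (median 0.14; scaled 12 and 2, 77.8%). At 16 h 6 rose and 9 fell, beside 83.5% (median -0.10; scaled 13 and 4, 77%). At 6 h 9 rose and 6 fell, beside 71.8% (median 0.14; scaled 11 and 3, 68%). The immunophilin Fkbp4, which helps the receptor move to the nucleus, fell in all 3 on both scales (-1.0, -0.87 and -0.72; scaled -0.49, -0.46 and -0.46). Hspa8, the constitutive heat shock protein 70, rose at 16 h (0.66; scaled 1.08) and at 6 h (0.67; scaled 0.94). For Dex on top of LPS, 11 of the 18 chaperones rose and 2 fell in control marrow-derived cells, where 59.9% of all genes were called. After scaling 5 rose and 5 fell there, beside 47.4% of all genes. With Dex alone in wild-type RAW264.7 cells 13 of the 18 chaperones fell and 1 rose, beside 36.8% of all genes called (median -0.24; scaled 11 and 1, 35.4%, median -0.19). The 1 that rose was Fkbp5, the immunophilin that restrains the receptor and is itself a receptor target (2.25; scaled 2.29).

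Genes of steroid receptors and glucocorticoid metabolism were scarce, with 4 of 12 tested in marrow-derived cells. H6pd, which supplies the cofactor for regeneration of active glucocorticoid in the endoplasmic reticulum, fell with LPS in control marrow-derived cells (-1.35; scaled -0.90), at 16 h (-1.29; scaled -0.93) and at 6 h (-0.83; scaled -0.59). It rose with Dex on top of LPS in the same 3 (0.49, 0.85 and 0.93; scaled 0.32, 0.76 and 0.90) and with Dex alone (0.45; scaled 0.49). Of known receptor targets 12 of 22 rose and 5 fell with Dex and LPS in control marrow-derived cells, beside 59.9% of all genes called (scaled 12 and 7, 47.4%). At 16 h 10 of 20 rose and 7 fell, beside 47.6% (scaled 8 and 9, 43.1%). At 6 h 12 rose and 4 fell, beside 25.3% (scaled 12 and 5, 25%), and with Dex alone 13 rose and 2 fell, beside 36.8% (scaled 13 and 1, 35.4%). Tsc22d3, the glucocorticoid-induced leucine zipper, rose with Dex alone from 9.74 to 183 TPM (4.10; scaled 4.13).

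By group means, the genes whose pattern was most like that of Nr3c1 were Fhl3 and Vta1 (Pearson r 0.89 each) and Kpna3, Mapkbp1 and Armc8 (0.88 each). These are correlations over 24 group means centred within each experiment, among 4845 genes with an SD of at least 0.25, and the points share libraries and the TPM total. Among the 9 members the highest values were Ncoa3 with Ncor1 (0.81), Ncoa2 with Ncor1 (0.80) and Hdac3 with Ncoa2 (0.78). The values of Nr3c1 with the other 8 ran from -0.41 (Hdac3) to 0.51 (Crebbp). All of these describe the groups and carry no test.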

How the data were processed

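Messenger RNA levels of 72 libraries were read from 3 tables, 1 for marrow-derived cells, 1 for both RAW264.7 Dex experiments and 1 for IFNB1. Values are TPM per gene and library, as deposited by the authors. The TPM unit of the IFNB1 table was read from its values. Salmon 0.10.2, DESeq2, R 3.6.0 and the build GRCm38.p6 are named, without roles, in the submitters' processing notes, while no annotation release is given in the sources used here. The log2 fold changes and adjusted p-values quoted from the authors' deposited tables are their own, and their columns of mean levels were not used. Depth in reads is unknown. A TPM table keeps no read count, so precision rests on the 3 libraries of a group.

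The 9 genes and the pathway lists were chosen with earlier results of these data known. Changes were fitted with limma 3.58.1 (eBayes with trend) in R 4.3.3 on log2(TPM + 1), with 1 mean per group and all groups of an experiment in 1 fit. The Dex response at 16 h minus 6 h came from a joint fit of both experiments. Genes at 1 TPM or more in at least 3 libraries of the fit were tested, which were 9159 marrow-derived, 8964 at 16 h, 8981 at 6 h and 10923 in the IFNB1 experiment. The deposited tables list 9179 genes for marrow-derived cells, 8983 for RAW264.7 cells with Dex and 18254 for IFNB1. Tests were two-sided over 37 comparisons, and the fit was tested on simulated data. Figures were drawn with Python 3.11.15 and matplotlib 3.10.9. Coordinates came from GENCODE vM21 on GRCm38.

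Alternatives were a pseudocount of 0.1 TPM, no filter, median-of-ratios scaling, a replicate block, the compared groups only, and leaving out each library. The 9 genes were eligible to be named in every comparison. From each list, genes were eligible in the LPS and Dex comparisons of control or wild-type cells if they were among the 4 largest called changes or the 2 most abundant genes not called, and some of these are given. For Nr3c1 the 5 genes with the highest r of centred group means are named.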

Additional observations from a re-analysis of the deposited data

Results flagged for a closer look

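A difference between genotypes was called for the IFNB1 response of Ep300, which was -0.59 in Setd1aDel minus wild-type and whose adjusted p of 0.0495 from limma lay close to the threshold. A difference between conditions was called for the Dex response of Hdac3 in wild-type RAW264.7 cells at 6 h, which was higher with LPS than without by 0.22 (adjusted p = 0.00964 from limma), but by 0.13 after scaling (adjusted p = 0.105).

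In 3 genes, called LPS changes went in opposite directions in different cells or experiments, with every LPS library on 1 side of every vehicle library in each. Nr3c1 changed by 1.31 in control marrow-derived cells and by -0.74 in wild-type RAW264.7 cells at 16 h, the latter -0.35 and not called after scaling. Smarca4 changed by 0.19 and -0.37 in the same comparisons, the latter 0.03 after scaling. Ep300 changed by -0.24 in Setd1aDel RAW264.7 cells at 16 h and by 0.35 at 6 h, the former 0.18 after scaling. None of these 3 differences was itself tested.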

How the results depend on the processing

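A pseudocount of 0.1 kept 330 of the 333 changes of single members (9 genes in 37 comparisons) on the same side of the threshold and in the same direction, no filter kept 331 and a replicate block 323. Fitting only the compared groups kept 285 of 306, and leaving out 1 library kept 2362 of the resulting values while 99 lost and 23 gained a call, with 0 reversed. Median-of-ratios scaling kept 270, ended 28 calls, added 21 and reversed 14. Reversed means a change of sign with a call on either scale, so a reversed value need not be called after scaling. The reversed LPS changes were Ncor1 in control (0.01) and Setd1bKO (0.04), Ncoa3 in control (0.25) and Setd1bKO (0.35), Ep300 in Setd1bKO (0.02), Crebbp, Smarca4 and Ep300 in wild-type at 16 h (0.24, 0.03 and 0.06) and the same 3 genes in Setd1aDel at 16 h (0.29, 0.06 and 0.18). The others were Smarca4 with Dex and LPS in Setd1bKO (-0.17) and wild-type at 16 h (-0.11), and Hdac3 with IFNB1 in Setd1aDel (0.08).

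Counts of members called moved by more than 1.5 times as follows, with the TPM count in brackets. Scaling gave 0 (1) for Setd1bKO over control with Dex and LPS, 1 (0) for the LPS difference at 16 h, 1 (0) for Dex with LPS in wild-type at 6 h, 0 (2) and 0 (1) for Setd1aDel over wild-type at 6 h in vehicle and with Dex, and 0 (1) for Dex with LPS minus without. In the IFNB1 experiment scaling gave 2 (1) in wild-type, 2 (4) in Setd1aDel, 2 (4) between genotypes with IFNB1 and 0 (1) for the difference of responses. That last count was also 0 with a pseudocount of 0.1, with no filter and with a replicate block. Fitting only the compared groups gave 1 (2) for Dex with LPS in Setd1bKO and in Setd1aDel at 16 h, 1 (5) in Setd1aDel at 6 h, 0 (1) for Setd1bKO over control with LPS and with Dex and LPS, 2 (1) for IFNB1 in wild-type, and 1 (2), 0 (1) and 0 (1) for Setd1aDel over wild-type at 6 h in vehicle, with LPS and with Dex. The cause of these moves was not tested.

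Without single libraries the count ran from 1 to 4 for Dex with LPS in Setd1bKO, from 0 to 3, 0 to 1 and 0 to 2 for Setd1bKO over control in vehicle, LPS and Dex with LPS, and from 0 to 1 for the LPS difference in marrow-derived cells and at 16 h. It ran from 1 to 2 for Dex with LPS at 16 h in either genotype and from 2 to 5 in Setd1aDel at 6 h. For Setd1aDel over wild-type at 6 h it ran from 0 to 3 in vehicle, 0 to 2 with LPS and 0 to 1 with Dex. With IFNB1 it ran from 0 to 1 in wild-type, 2 to 4 in Setd1aDel, 1 to 4 between genotypes and 0 to 1 for the difference of responses.

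Equal replicate numbers showed no strong shared signal in the residuals, which cannot exclude that the samples were paired. The residuals of same-numbered libraries had median correlations of 0, -0.02, 0.01 and -0.01 in the marrow-derived, 16 h, 6 h and IFNB1 experiments, beside 0, 0.01, 0 and 0.01 for other pairs. A replicate block gave 4 (2) calls for Dex with LPS in Setd1bKO, 1 (2) at 16 h in wild-type and in Setd1aDel, 1 (2) for Setd1aDel over wild-type in vehicle at 6 h and 0 (1) for the IFNB1 difference.

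In the lists, scaling moved the coactivators called with Dex and LPS in control marrow-derived cells from 14 to 9, the corepressors at 6 h from 3 to 5, and with Dex alone the corepressors from 10 to 6 and the steroid genes from 1 to 2. A replicate block moved the SWI/SNF subunits called with Dex and LPS at 6 h from 4 to 2. Fitting only the compared groups moved the coactivators there from 4 to 1 and the corepressors with Dex alone from 10 to 6.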
